A study of Mus musculus with 6 samples.

Results

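The enzymes that turn acetyl-CoA into sterols, with their regulator SREBP-2, were followed in livers taken 1 day after bile duct ligation (BDL) or sham surgery. The 8 genes were picked by name: Hmgcs1, Idi1, Fdps, Sqle, Lss, Cyp51, Msmo1 and Srebf2. The platform annotation named 10 probe sets, groups of short probes that report a transcript, for 7 of them. Srebf2 had no probe set named for it and its RNA was not analysed here. Of the 10 probe sets, 9 passed the filter on low signals, and each of the 7 genes is represented by its tested probe set with the highest mean signal, among 6897 genes tested in all. The names were picked with the signals of the single mice known, because the spread within each group was the question. Levels, spread and differences of these 7 genes are therefore a description, with no test of their own.

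All 6 mice were wild-type male C57BL/6J animals aged 8 to 10 weeks, operated under methoxyflurane, with 1 mouse per array. In 3 BDL mice, labelled 1, 12 and 3, the common bile duct was tied and cut, which stops bile from leaving the liver. The 3 sham mice, labelled 1, 2 and 3, had the same opening of the abdomen without ligation. Values are the deposited array signals, in arbitrary units on a linear scale. Median signals were 525, 497 and 513 on the arrays of BDL mice 1, 12 and 3, against 627, 515 and 431 on those of sham mice 1, 2 and 3. Sham 1 stood apart at low signals: 12.5% of them did not exceed the floor of 152.7 set for low signals, against 24.4% to 31.3% on the other 5 arrays. The number of arrays limits the precision.

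Cholesterol synthesis starts with the mevalonate pathway, passes through isoprenoid diphosphates to squalene, and ends with the closing and trimming of the sterol rings. When sterols in the endoplasmic reticulum run low, the chaperone SCAP carries SREBP-2 to the Golgi, where it is cut. The released part enters the nucleus and raises transcription of these enzymes. Cholesterol in the hepatocyte is also the starting material of bile acids, whose outflow BDL blocks. SREBP-2 works at promoters through a sterol regulatory element, usually together with the factor NF-Y, which binds CCAAT boxes.

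Promoter windows of 250 bases before to 50 bases after the annotated start were taken from RefSeq (GRCm38.p6) for Hmgcs1, Idi1, Lss, Cyp51, Msmo1 and Srebf2, 6 of the 8 genes. Those of 3 genes are shown: that of Hmgcs1, in which both motifs were found, and those of Idi1 and Msmo1, the pair of genes with the widest range of signal among the mice. Capitals mark matches, on either strand, to the element core TCACNCCAC or to CCAAT, which reads ATTGG on the other strand.
Hmgcs1 (chr13:119690101-119690400, plus strand): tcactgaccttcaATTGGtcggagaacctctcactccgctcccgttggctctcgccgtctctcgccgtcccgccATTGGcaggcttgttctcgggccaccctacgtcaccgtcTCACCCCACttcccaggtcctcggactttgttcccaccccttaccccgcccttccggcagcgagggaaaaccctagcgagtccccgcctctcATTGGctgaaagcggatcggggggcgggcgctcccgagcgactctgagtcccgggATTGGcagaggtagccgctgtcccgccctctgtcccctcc
Idi1 (chr13:8885356-8885655, plus strand): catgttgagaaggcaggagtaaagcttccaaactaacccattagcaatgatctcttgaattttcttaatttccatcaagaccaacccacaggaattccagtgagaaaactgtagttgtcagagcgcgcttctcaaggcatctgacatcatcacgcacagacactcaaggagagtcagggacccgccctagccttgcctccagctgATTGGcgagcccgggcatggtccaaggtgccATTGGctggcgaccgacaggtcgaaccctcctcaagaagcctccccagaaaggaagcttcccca
Msmo1 (chr8:64733529-64733828, minus strand): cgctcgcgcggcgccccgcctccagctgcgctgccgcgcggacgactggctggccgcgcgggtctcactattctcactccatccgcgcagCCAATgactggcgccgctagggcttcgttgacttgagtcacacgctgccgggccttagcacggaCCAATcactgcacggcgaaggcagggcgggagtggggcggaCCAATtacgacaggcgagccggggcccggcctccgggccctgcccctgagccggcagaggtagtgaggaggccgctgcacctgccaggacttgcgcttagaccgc

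The core TCACNCCAC was found in 1 of the 6 windows, 137 bases before the start of Hmgcs1, and in 1.24% of 32851 promoter windows of the same length. CCAAT was found in 6 of 6 windows, against 37.4% of all windows. It lay on the minus strand 45 bases before the start of both Hmgcs1 and Idi1, with 3 other matches in Hmgcs1 and 1 other in Idi1. Msmo1 held 3 matches, all on its plus strand, at 160, 96 and 55 bases before the start. The core and CCAAT share no overlapping letters in these windows. Among 12 other sterol synthesis enzymes with at least 1 window, 11 held CCAAT in 1 or more windows and 0 held the core. Dhcr7 had 3 windows and Pmvk 2, so this is a count of genes, unlike the share over all windows. A match is a description of letters and not a bound site. Only exact matches were counted, so a window without one may still hold an element.

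**Figure D1:**
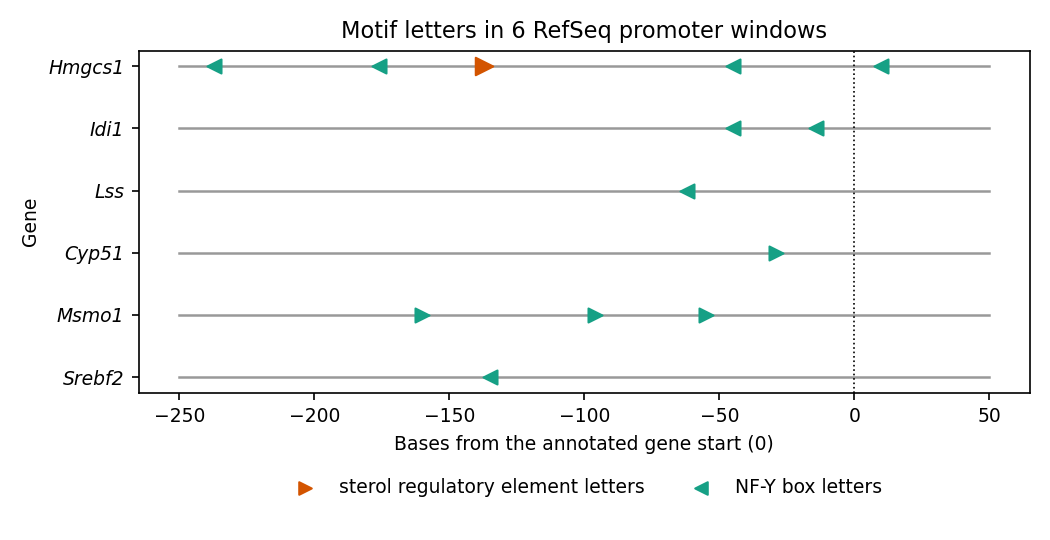
Position of motif letters in the promoter windows of 6 genes, in bases from the annotated gene start at 0. Orange triangles mark the sterol regulatory element core, which appears in Hmgcs1 alone of the 6, green triangles mark CCAAT boxes, and a triangle points right for the gene's own strand and left for the opposite one.

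The early enzymes were followed first. Hmgcs1, the cytosolic HMG-CoA synthase that feeds the mevalonate pathway, had signals of 15895, 3305 and 24607 in BDL mice 1, 12 and 3, against 16581, 4585 and 6455 in sham mice 1, 2 and 3. Idi1, which isomerises the isoprenoid building block isopentenyl diphosphate, had signals of 18664, 1403 and 24222 in BDL mice 1, 12 and 3, against 30367, 1670 and 5010 in sham mice 1, 2 and 3. In both genes BDL 1, BDL 3 and sham 1 were high and the other 3 mice were low, so each surgery group held high and low animals and the groups overlapped. Fdps, the synthase of farnesyl diphosphate, had signals of 27847, 6991 and 34596 in BDL mice 1, 12 and 3, against 50912, 7359 and 10236 in sham mice 1, 2 and 3. Its high and low mice were the same ones. Within the BDL group the signal of mouse 3 was 7.45 times that of mouse 12 for Hmgcs1, 17.3 times for Idi1 and 4.95 times for Fdps. Within the sham group the signal of mouse 1 was 3.62 times that of mouse 2 for Hmgcs1, 18.2 times for Idi1 and 6.92 times for Fdps.

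Fdps carried 3 further probe sets. One, whose suffix (_f_at) marks probes shared by a family of similar sequences, read 15939, 6078 and 27666 in BDL mice 1, 12 and 3, against 29400, 4873 and 8056 in sham mice 1, 2 and 3, again with BDL 1, BDL 3 and sham 1 on top. Another was dim, with signals of 110 to 282 in BDL mice and of 117 to 492 in sham mice, exceeded the floor on 4 of 6 arrays, and ordered the mice differently. The last was under the floor on all 6 arrays, with 28.4 to 136 in BDL mice and 94.1 to 123 in sham mice, and was not tested.

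The squalene and sterol steps followed the same mice. Sqle, the squalene epoxidase that is a rate-limiting step of the later pathway, had signals of 8736, 1992 and 14054 in BDL mice 1, 12 and 3, against 7684, 3817 and 3078 in sham mice 1, 2 and 3. Lss, the lanosterol synthase that closes the sterol rings, had signals of 2119, 455 and 3662 in BDL mice 1, 12 and 3, against 3620, 788 and 681 in sham mice 1, 2 and 3. BDL 12 was the lowest of the 6 mice for Sqle and Lss, and sham 1 was the only high sham mouse. Cyp51, the cytochrome P450 that removes a methyl group from lanosterol, had signals of 4319, 788 and 4935 in BDL mice 1, 12 and 3, against 3817, 1231 and 1482 in sham mice 1, 2 and 3. Msmo1, the methylsterol monooxygenase that acts after it, had signals of 9871, 1053 and 12752 in BDL mice 1, 12 and 3, against 14204, 3169 and 3860 in sham mice 1, 2 and 3. Msmo1 and Cyp51 kept the order of the early enzymes in that BDL 12 was lowest, sham 2 next and then sham 3. Their ranges within the BDL group were 12.1-fold for Msmo1 and 6.26-fold for Cyp51.

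**Figure D2:**
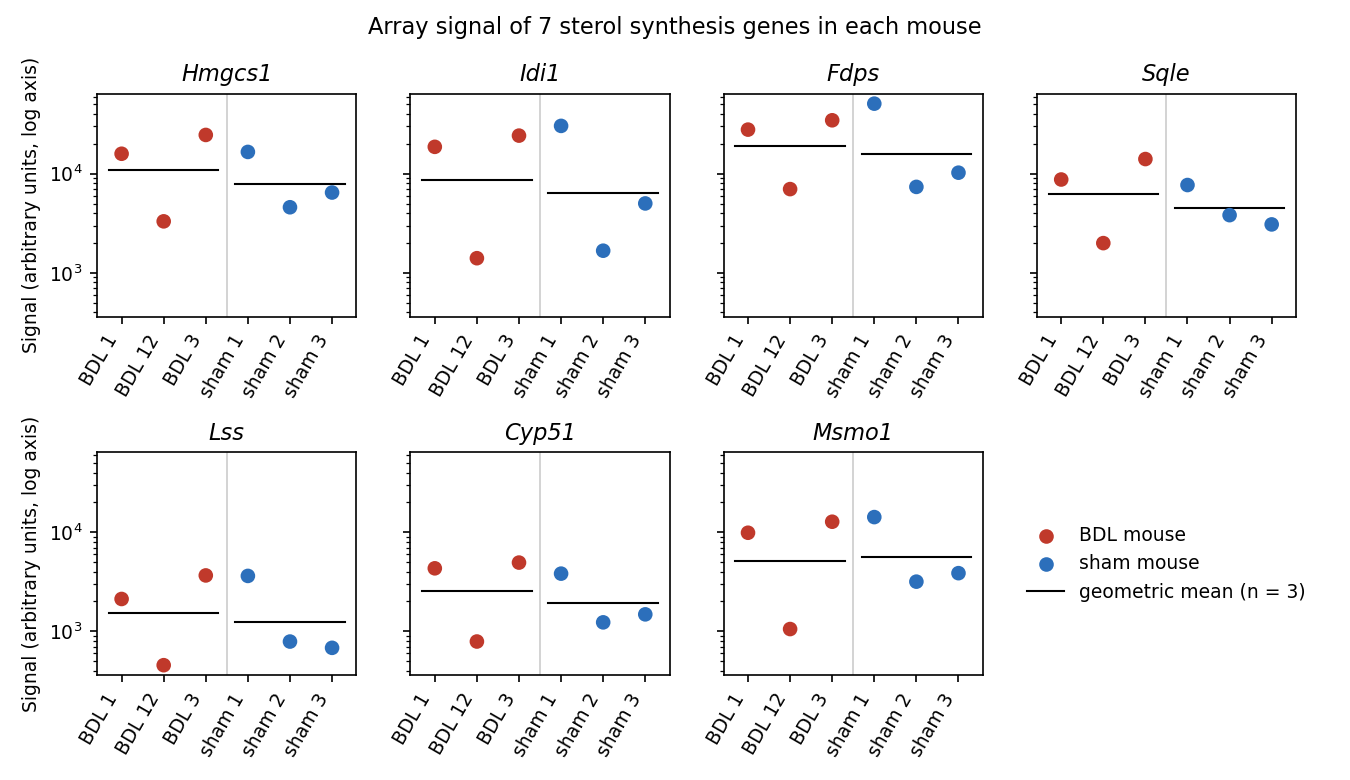
Signal of 7 sterol synthesis genes (log axis, arbitrary units) in each of 3 BDL mice (red) and 3 sham mice (blue), with the geometric mean of each group as a line. In each panel BDL 1, BDL 3 and sham 1 lie above BDL 12, sham 2 and sham 3, so that the groups overlap.

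The 3 highest signals came from BDL 1, BDL 3 and sham 1 for 7 of 7 genes, against 6.34% of the 6897 tested genes. BDL 12 had the lowest signal for 7 of 7. The lowest of these 3 signals exceeded the highest of the other 3 by 2.01-fold for Sqle and by 3.73-fold for Idi1, with the other 5 genes between. Averaged over the 7 genes, the log2 signal relative to each gene's mean over the arrays was 0.86, -1.72 and 1.34 in BDL mice 1, 12 and 3, against 1.23, -1.04 and -0.67 in sham mice 1, 2 and 3. Over all tested genes the same average lay between -0.03 and 0.02 on the BDL arrays and between -0.12 and 0.12 on the sham arrays. RNA came from whole liver, in which fewer cells of a type and less RNA per cell cannot be told apart.

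The spread was wide for all 7 genes among the BDL mice, and less uniformly so among the sham mice. The standard deviation of log2 signal among the 3 BDL mice was 1.25 for Fdps, the least of the 7, and 2.27 for Idi1, the most, against a median of 0.32 over all tested genes. Among the 3 sham mice it was 0.69 for Sqle, the least, and 2.11 for Idi1, the most, against a median of 0.45. In BDL these values stood at the 98.2 percentile of tested genes for Fdps and the 99.96 percentile for Idi1, so each of the 7 varied more among BDL mice than nearly all genes tested. In sham they stood at the 75.2 percentile for Sqle, 87.0 for Cyp51 and 90.2 for Hmgcs1. The other 4 genes stood between the 95.4 percentile (Msmo1) and the 99.93 percentile (Idi1). Signals ranged at least 4-fold within BDL and also within sham for 4 of 7 genes (Idi1, Fdps, Lss and Msmo1), against 1.03% of tested genes. Hmgcs1, Cyp51 and Sqle did not reach 4-fold in sham, where their ranges were 3.62-fold, 3.10-fold and 2.50-fold.

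**Figure D3:**
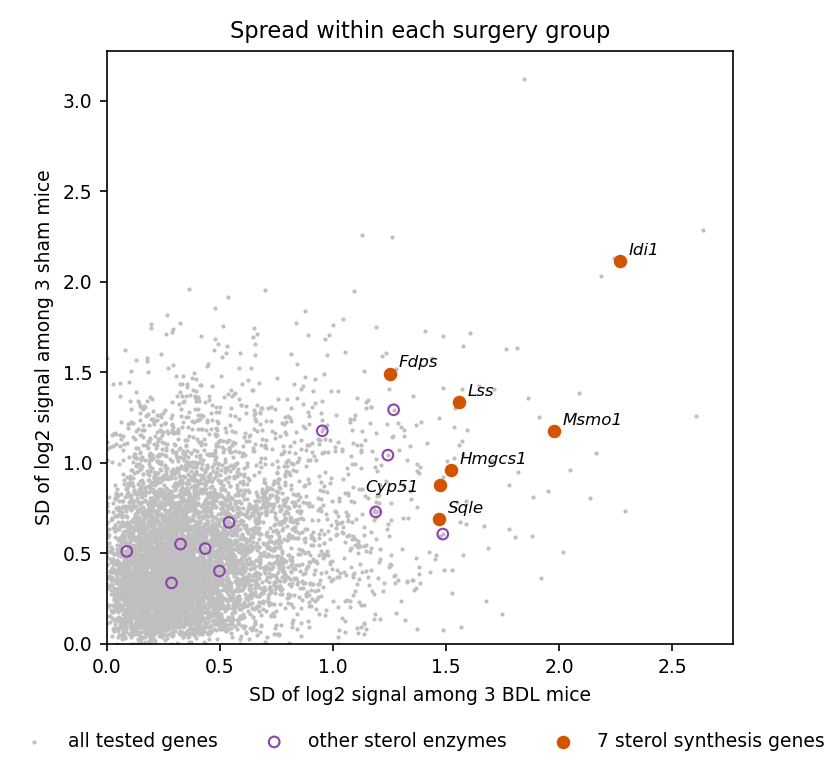
Standard deviation of log2 signal among 3 BDL mice (x axis) and among 3 sham mice (y axis) for all tested genes (grey), 7 sterol synthesis genes (orange) and 11 other sterol enzymes (open purple circles). Idi1 lies far out on both axes at 2.27 and 2.11, and the 7 genes lie at 1.25 or more on the BDL axis.

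The comparison of BDL with sham asked how the liver changed 1 day after the duct was tied. A positive mean difference was seen in 6 of the 7 genes and a negative one in Msmo1, each smaller than the SD among the mice of either group. With limma, which fits a linear model to every probe set and shares variance information between them, 0 of 9542 probe sets (0%) had a Benjamini-Hochberg adjusted p under 0.05, so 0 of these 7 genes did. The unadjusted p was under 0.05 for 0 of 7 genes, against 5.70% of tested genes, and the groups did not overlap for 0 of 7, against 10.6%. Log2 differences, BDL minus sham, were 0.48 (SE 0.69) for Sqle, 0.47 (SE 0.75) for Hmgcs1 and 0.44 (SE 1.24) for Idi1. They were 0.42 (SE 0.72) for Cyp51, 0.29 (SE 0.85) for Lss, 0.27 (SE 0.81) for Fdps and -0.13 (SE 0.94) for Msmo1. The median over the 7 genes was 0.42, against -0.01 over all tested genes, of which 49.2% had a positive difference. The 95% interval ran from -1.09 to 2.05 for Sqle, the narrowest, and from -2.39 to 3.27 for Idi1, the widest, and the intervals of all 7 spanned 0.

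Single mice set the sign of these differences. Without BDL 3 the 7 differences lay between -0.79 and -0.05, all negative, and without BDL 12 they lay between 0.99 and 1.75, all positive. Without sham 1, the array that stood apart at low signals, they lay between 0.54 and 1.57, again all positive. Without BDL 1, sham 2 or sham 3 the signs were mixed, with 4, 3 and 4 of 7 genes positive and medians of 0.05, -0.04 and 0.21. In none of these fits did a member pass the adjusted threshold. All 7 differences were also positive with array weights, which count arrays by their fit to the rest, at 0.87 to 2.05.

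**Figure D4:**
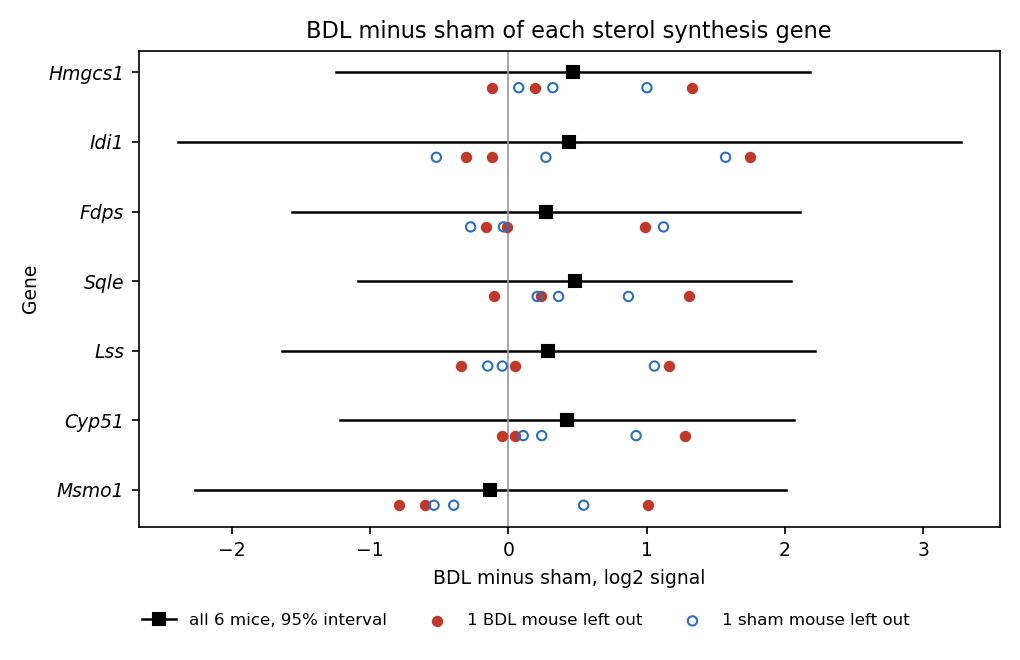
BDL minus sham difference in log2 signal of 7 sterol synthesis genes with its 95% interval from all 6 mice (black), and the difference after leaving out 1 BDL mouse (filled red) or 1 sham mouse (open blue). Every interval spans 0, and the left-out values lie on both sides of 0 for each gene.

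The remaining enzymes of the pathway came from a list of 15, of which 11 were tested. None passed over all probe sets, with 0 of 11 higher and 0 of 11 lower at an adjusted p of 0.05, and 7 of 11 had a positive difference with a median of 0.02. The mouse pattern was shared by most of them: BDL 1, BDL 3 and sham 1 held the 3 highest signals for 8 of 11, against 6.34% of tested genes. Mvd, the mevalonate diphosphate decarboxylase, had signals of 1747, 387 and 1798 in BDL mice 1, 12 and 3, against 2201, 497 and 440 in sham mice 1, 2 and 3. Fdft1, the squalene synthase, had signals of 6491, 1950 and 10369 in BDL mice 1, 12 and 3, against 11562, 3661 and 3048 in sham mice 1, 2 and 3. Both thus ordered the mice much as the 7 genes did. Nsdhl and Dhcr7, enzymes of the late sterol steps named like Mvk and Hsd17b7 after their values were seen, had ranges of 3.69-fold and 6.23-fold in BDL mice, against 4.64-fold and 2.31-fold in sham mice. Mvk, the mevalonate kinase, and Hsd17b7, a keto-reductase of the late steps, shared the pattern with narrower ranges of 1.52-fold and 1.83-fold in BDL mice, against 2.13-fold and 2.07-fold in sham mice.

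Sc5d, the sterol desaturase of a late step, read 4451, 1003 and 3899 in BDL mice 1, 12 and 3, against 8386, 3379 and 3631 in sham mice 1, 2 and 3, a difference of -0.85 (SE 0.61; limma adjusted p = 0.841), on a probe set whose probes are shared by similar sequences. Lbr, the lamin B receptor, which also reduces sterols, had BDL 1, BDL 3 and sham 1 on top with a range of only 1.41-fold in BDL and 1.53-fold in sham mice (difference 0.47, SE 0.32; limma adjusted p = 0.834). The other 3 enzymes ordered the mice differently. Ggps1, which leads farnesyl diphosphate towards protein prenylation and not to sterols, differed by -0.68 (SE 0.43; limma adjusted p = 0.832), with its highest signal, 696, in sham 2. Ebp, a sterol isomerase, had its highest signal, 4350, in sham 3 and differed by -0.24 (SE 0.33; limma adjusted p = 0.911). Tm7sf2, a sterol reductase named after its values were seen, was highest in BDL 12 at 4931 and lowest in sham 1 at 2261.

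Genes that control SREBP activity and lipoprotein uptake were thinly covered, with 5 tested of 15 listed. Insig1, the protein that holds SCAP back in the endoplasmic reticulum and a known SREBP target, was under the floor on all 6 arrays, with 8.60 to 55.9 in BDL mice and 19.8 to 111 in sham mice. None of the 5 passed the adjusted threshold, 1 of 5 had a positive difference, the median was -0.23, and BDL 1, BDL 3 and sham 1 were on top for 0 of 5. Srebf1, which encodes the sister factor SREBP-1 of fatty acid synthesis, had signals of 2662, 6232 and 3384 in BDL mice 1, 12 and 3, against 5251, 8682 and 4152 in sham mice 1, 2 and 3. Its 2 highest signals thus came from sham 2 and BDL 12, the 2 mice with the lowest mean level of the 7 sterol genes, and it differed by -0.58 (SE 0.42; limma adjusted p = 0.841). Lrpap1, a chaperone of lipoprotein receptors such as Lrp1, differed by -0.33 (SE 0.31; limma adjusted p = 0.873) and Mbtps1, the Golgi protease that makes the first cut in SREBP, by -0.23 (SE 0.32; limma adjusted p = 0.911). Pgrmc1, a haem-binding partner of cytochromes P450 of the sterol pathway, differed by 0.11 (SE 0.32; limma adjusted p = 0.958).

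Fatty acid synthesis, driven mainly by SREBP-1c in liver, was set beside it with 10 tested genes of 14 listed. None passed the adjusted threshold, 6 of 10 had a positive difference, the median was 0.07, and BDL 1, BDL 3 and sham 1 were on top for 2 of 10, Acly and Elovl6. Acly, the ATP citrate lyase that supplies acetyl-CoA to both pathways, had signals of 5304, 2950 and 8735 in BDL mice 1, 12 and 3, against 8215, 3139 and 4122 in sham mice 1, 2 and 3. Scd1, the stearoyl-CoA desaturase, had signals of 36674, 120768 and 59626 in BDL mice 1, 12 and 3, against 34607, 61362 and 67138 in sham mice 1, 2 and 3. Scd1 was therefore highest in the mouse in which the sterol genes were lowest and lowest in sham 1, where they were high. Thrsp, a lipogenic factor named like Acly and Scd1 after its values were seen, was likewise highest in BDL 12 at 9092. By the smallest p, Fasn, the fatty acid synthase, differed by 0.68 (SE 0.40) and Me1 by -0.46 (SE 0.27). Both had a limma adjusted p of 0.832. For Me1, the malic enzyme that supplies NADPH, every BDL mouse was below every sham mouse, as for 4.26% of tested genes. The groups overlapped for the other 9 genes of the list. Fads1, a fatty acid desaturase, differed by -0.32 (SE 0.30; limma adjusted p = 0.873) and Elovl6, a fatty acid elongase, by 0.47 (SE 0.52; limma adjusted p = 0.891).

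Cholesterol transport, esterification and use had 13 tested genes of 20 listed. None passed the adjusted threshold, 8 of 13 had a positive difference, the median was 0.06, and 0 of 13 had BDL 1, BDL 3 and sham 1 on top. Cyp7a1, the rate-limiting enzyme that turns cholesterol into bile acids, had signals of 1842, 395 and 106 in BDL mice 1, 12 and 3, against 4368, 598 and 628 in sham mice 1, 2 and 3. It shared the high value in BDL 1 and sham 1 with the sterol genes. However, it was lowest in BDL 3, where 4 of the 7 sterol synthesis genes were highest. Its difference was -1.29 (SE 0.99, limma adjusted p = 0.849), with the 106 of BDL 3 raised to the floor of 152.7 in the fit. Star, a mitochondrial cholesterol carrier of steroid-making cells, was 2394 in sham 1 and 327 to 731 in the other 5 mice, on a probe set whose probes are shared by similar sequences (difference -0.86, SE 0.63; limma adjusted p = 0.842). Npc2, which helps carry cholesterol out of lysosomes, differed by 0.37 (SE 0.30; limma adjusted p = 0.858). Osbp, an oxysterol-binding protein, differed by -0.34 (SE 0.28; limma adjusted p = 0.861) and every BDL mouse was below every sham mouse, as for 4.26% of tested genes.

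**Figure D5:**
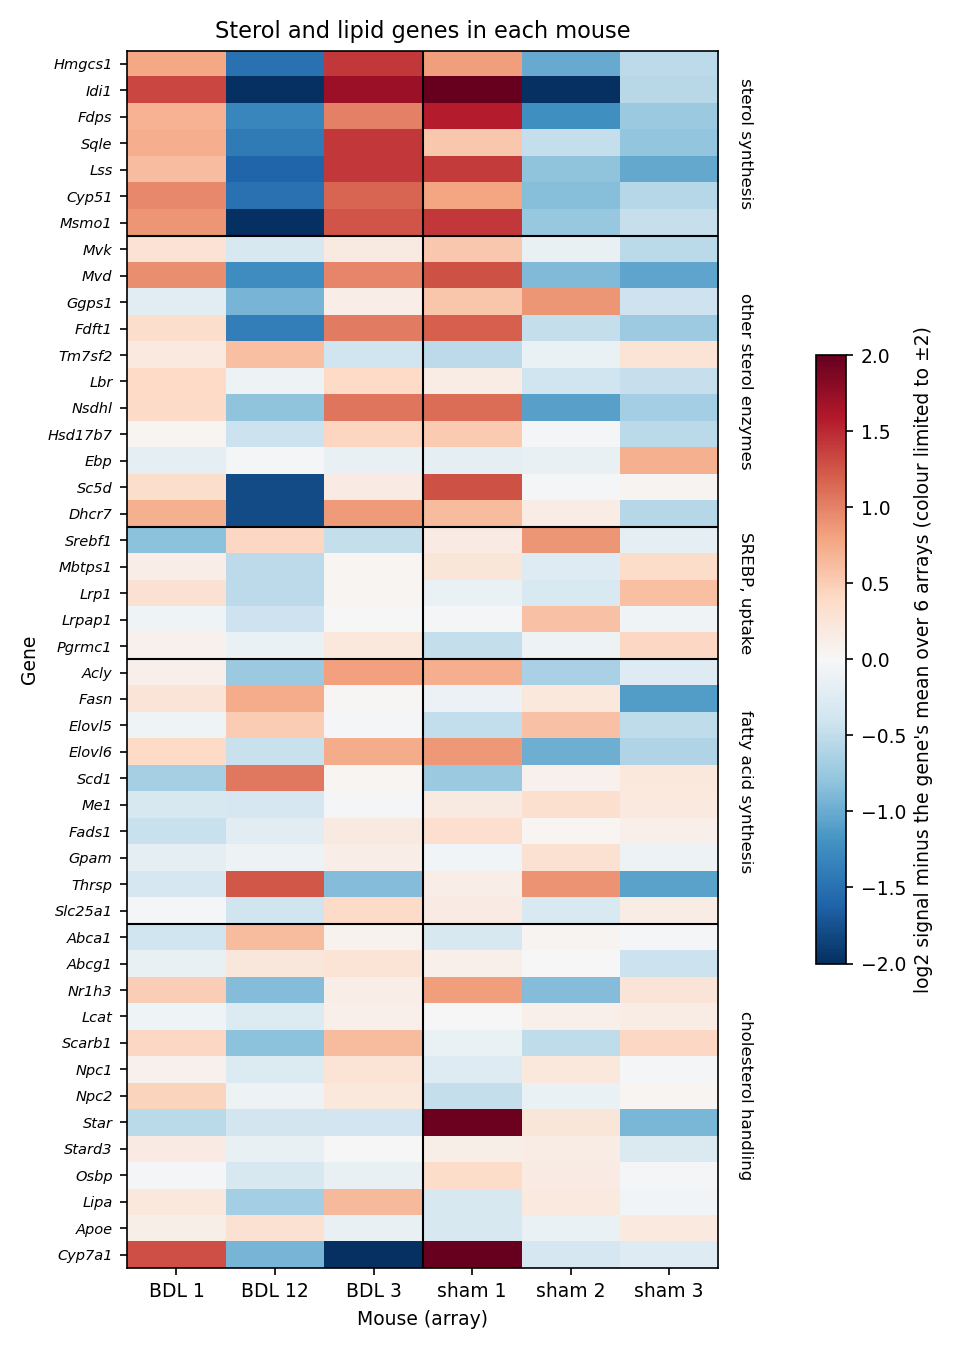
Log2 signal of each gene minus its mean over the 6 arrays (colour, limited to 2 either way), for 3 BDL and 3 sham mice in columns and 46 genes of 5 lists in rows. The sterol synthesis rows are red in BDL 1, BDL 3 and sham 1 and blue in BDL 12, sham 2 and sham 3. BDL 1, BDL 3 and sham 1 also held the 3 highest signals for 8 of 11 other sterol enzymes, but not for Srebf1, Scd1 and Thrsp.

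The genes outside the 7 with the most similar course over the 6 arrays were ranked by the Pearson correlation of log2 signal with the mean standardized level of the 7. This is a description over 6 arrays from 1 experiment, in which the arrays fall into a high and a low set, and 1.00% of tested genes reached 0.9. Cyp26a1, the retinoic acid hydroxylase, came first (r = 0.99), with signals of 707, 177 and 1038 in BDL mice 1, 12 and 3, against 872, 198 and 321 in sham mice 1, 2 and 3. Fdft1 and Mvd of the sterol pathway also stood among the first 8 (r = 0.97 each), with ranges of 5.93-fold and 5.69-fold over the 6 mice. The other 5 of the first 8 were Mrpl52, Hspa4l, Isg20, Ccdc117 and Cd82 (r = 0.96 to 0.98), whose ranges of 1.30-fold to 1.92-fold were far narrower than that of any of the 7, the least of which was 6.26-fold for Cyp51.

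Markers of the cells in the samples were read beside these levels. Hepatocyte markers were bright on all 6 arrays: the summed signal of 11 tested markers of 12 listed was 718443 to 975589 in BDL mice, against 583586 to 889021 in sham mice, highest in BDL 12 and lowest in sham 1, with Alb at 147870 to 199675 in BDL mice, against 125084 to 170913 in sham mice. By the mean log2 deviation from each gene's mean, the list was instead highest in sham 3 at 0.36, with BDL 12 at 0.18. It was again lowest in sham 1, at -0.24. Of 13 tested macrophage markers of 14 listed, 5 (Adgre1, C1qa, C1qc, Lyz2 and Cd5l) had BDL 1, BDL 3 and sham 1 on top, against 6.34% of tested genes. Their list summed to 18661, 41487 and 33675 in BDL mice 1, 12 and 3, against 13285, 15701 and 8251 in sham mice 1, 2 and 3, a sum led by Cd14 at 29692 in BDL 12. No marker was listed at 0, and Clec4f, a Kupffer cell lectin, read 751 to 1742 in BDL mice, against 329 to 1132 in sham mice. The same 3 mice were on top for 1 of 10 neutrophil, 1 of 7 stellate and 1 of 3 cholangiocyte markers tested, and for 0 of 5 lymphocyte, 0 of 8 endothelial, 0 of 2 erythroid, 0 of 3 adipose and 0 of 4 adrenal markers. The 3' to 5' signal ratio of beta-actin, a sign of RNA integrity, was 1.21, 1.41 and 1.33 in BDL mice 1, 12 and 3, against 1.53, 1.54 and 1.52 in sham mice 1, 2 and 3, and that of Gapdh was 0.690, 0.736 and 0.741, against 0.652, 0.692 and 0.813. That of Pcx, pyruvate carboxylase, was 1.29, 2.05 and 2.76 in BDL mice 1, 12 and 3, against 2.26, 2.67 and 4.57 in sham mice 1, 2 and 3, highest in sham 3. Sham 1, which stood apart at low signals, also had the lowest correlations of log2 signal with the other 5 arrays. They were 0.856 to 0.893, against 0.921 to 0.955 among those 5. The mean log2 deviation of the lymphocyte markers was -0.52, -0.14 and -0.22 in BDL mice 1, 12 and 3, against 1.04, 0.38 and -0.53 in sham mice 1, 2 and 3, and that of the adrenal markers was -0.38, -0.15 and -0.30, against 1.14, 0.15 and -0.45. Both lists were thus highest in sham 1, as was the neutrophil list at 0.38. By summed signal, however, the neutrophil list was lowest in sham 1 at 49004, against 109774 in BDL 3, a sum led by Lcn2. Part of these lists was dim: Cd3g, Cd79b, Cyp11a1, Hsd3b1, Mpo, Ngp, Ltf and Cxcr2 lay under the floor of 152.7 on some arrays. Cd4, Cd79a, Ms4a1, Star and Cyp21a1 exceeded it on every array. Whether the shift of sham 1 at low signals raised these lists was not tested. The part of macrophage, lymphocyte or adrenal RNA, or of RNA quality, in the sterol gene levels was not tested.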

How the data were processed

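Liver RNA from 3 BDL and 3 sham mice, 1 mouse per array, was hybridized to Affymetrix U74Av2 arrays. The authors used version 4.0 of MicroArray Suite with GeneChip expression software 3.1, per the series' design text. How they scaled signals and treated background is not stated in the sources used here. The deposited intensity values, 1 per probe set and array, are linear and above 0. Their 2% trimmed mean was 1501 on each array, and on that measure they were kept as scaled. Their medians differed more, from 431 on sham 3 to 627 on sham 1. The plan made quantile normalization the main scaling if medians or trimmed means differed by more than 5%. By the medians that rule was met, but quantile normalization was run only as an alternative.

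A floor of 152.7, the 25th percentile of the whole table, replaced lower signals before log2 transformation, which understates differences of dim probe sets. Of 12488 probe sets, 66 were controls and 2880 exceeded the floor on fewer than 3 arrays. The other 9542 were tested with limma 3.58.1 in R 4.3.3 (lmFit and eBayes, no covariates, 4 residual and 4.67 prior degrees of freedom), with Benjamini-Hochberg adjustment over all 9542 and a threshold of 0.05. The fit was tested on simulated data. SE is the moderated standard error. Gene names followed the platform annotation, brought up to date through gene identifiers in RefSeq (GRCm38.p6): 10833 probe sets had 1 symbol, 396 several and 1193 none.

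The members and lists were chosen with earlier results of these data known. Besides the 7 genes, up to 4 genes of each list by smallest unadjusted p and the 8 genes nearest in pattern were named, and others are marked. Alternatives were quantile normalization, equal trimmed means, other floors at the 10th and 40th percentiles, an added constant of 100, array weights, robust variances, a variance trend, a filter at the 50th percentile or none, leaving out each mouse, the replicate number as a block and the mean over a gene's probe sets. Scan dates and other batches were not used here.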

Additional observations from a re-analysis of the deposited data

How the results depend on the processing

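No probe set passed the adjusted threshold under any alternative except without a filter, where 3 did: Anxa3, Myc and Ate1, each under the floor in all 3 sham mice. These 3 exceeded the floor on 3 arrays, so they were also tested in the main setting and did not pass there. The unadjusted p was under 0.05 for 552 probe sets in the main setting, for 333 with the filter at the 50th percentile, where fewer probe sets were tested, and for 1023 with array weights; leaving out 1 mouse gave 308 (without BDL 3) to 1176 (without sham 3). The median difference of the 7 sterol synthesis genes was 0.42 and stayed within 1 SD among mice under all alternatives, at 0.32 after quantile normalization, 1.17 with array weights and -0.17 to 1.27 with 1 mouse left out. That SD is wide for these genes, so staying within it does not mean a stable sign. Without BDL 3 all 7 differences were negative. For the 5 genes of SREBP control and lipoprotein uptake the median of -0.23 became 0.0163 with array weights and -0.0640 with the replicate block, and was -0.3223 (without BDL 1) to -0.0342 (without BDL 12) with 1 mouse left out. The cause was not tested. The medians of 3 other lists lay close to 0 and moved by less than 1 SD under each alternative, but their sign turned under some. That of other sterol enzymes (0.02) was -0.19 (without BDL 3) to 0.29 (without sham 1) with 1 mouse left out and -0.0052 after quantile normalization. That of cholesterol handling (0.06) was -0.13 (without BDL 3) to 0.08 (without sham 2) with 1 mouse left out and -0.03 after quantile normalization. That of fatty acid synthesis (0.07) was -0.07 with array weights.

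Numbers 1 and 3 occur in both groups, and the labels do not say that a number marks a shared litter, batch or day. Deviations from the group means correlated at 0.21 for number 1 and 0.25 for number 3 across probe sets, and at 0.29 for BDL 12 with sham 2. All other pairs of a BDL with a sham mouse correlated negatively, at -0.21 to -0.04. Deviations sum to 0 within a group, so positive pairs entail negative ones. Whether the mice form such pairs was not tested. In the fit with the replicate block, BDL 12 and sham 2 each form a block of their own, so its differences rest on the mice numbered 1 and 3 and leave out these 2; a block that paired all 6 mice would, by its construction, leave the differences as they are without one. With the replicate block the 7 genes had a median difference of 0.83, and all 7 differences were positive at 0.44 to 1.19, with Msmo1 at 0.60, against -0.13 without the block. In that fit 651 probe sets had an unadjusted p under 0.05, and 0 passed the adjusted threshold. With 3 mice a group, the 95% intervals of all 7 genes spanned 0.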
